A study of Mus musculus with 7 samples.

Results

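The 129 protein-coding olfactory receptor (Olfr) genes of mouse chromosome 9 were examined for accessible chromatin in adult liver. Members were all genes of type protein coding on this chromosome of mm9, in GENCODE release M1, whose symbol starts with Olfr. They are 129 of 22367 protein-coding genes and 129 of 1113 protein-coding Olfr genes. The rule uses position, gene type and symbol and no accessibility value, although this family was taken up with earlier results of these data known. Since RNA was not used here, the absence of their transcripts in liver was not checked. Chromatin was probed with 3 nucleases in liver of male C57BL/6 mice aged 8 weeks. Benzonase and Cyanase are endonucleases that were applied to pulverized frozen liver at 0.25, 1 and 4 U, with 1 labelled sample at each amount, and DNase I was applied to nuclei purified from fresh liver, with 1 labelled sample. Each nuclease is represented by 1 list of hotspots, the places where cut ends were denser than in the surroundings, called on the pooled tags of that nuclease. The lists held 72286 hotspots for DNase I, 60910 for Benzonase and 57675 for Cyanase, with positions only. The number of tags behind a hotspot is therefore unknown, there is no spread between replicates, and the 95% intervals given here cover counting error only. Whole liver holds several cell types, so a site open in few cells and a site weakly open in many cannot be told apart. The material, fresh nuclei or frozen powder, changed together with the nuclease, and the effects of the pair cannot be told apart.

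Olfactory receptors are G protein-coupled receptors with which sensory neurons of the nose detect odorants. Their genes lie in long genomic clusters, each neuron transcribes a single receptor gene from a single allele, and in other tissues the clusters are known as silent heterochromatin. Promoters of olfactory receptor genes are typically AT-rich, lack CpG islands, and are known for sites of homeodomain proteins such as Lhx2 and of EBF (Olf1) factors.

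The 129 genes formed 2 clusters when neighbours less than 1 Mb apart were joined. Cluster 1 held 35 genes over 1.58 Mb (chr9:18559100-20140538), from Olfr24 to Olfr18. Cluster 2 held 94 genes over 2.48 Mb (chr9:37518857-39995679), from Olfr151 to Olfr986. The clusters lay 17.4 Mb apart. In the annotation 103 members had 1 exon, 26 had more than 1 and at most 5, and 68 had every transcription start site (TSS) placed at the start codon. The median gene length was 951 bp, with a range from 918 bp to 23752 bp at Olfr872. The symbols of 2 members end in ps1, although the annotation types them as protein coding.

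The sequences below are short pieces of the windows and regions compared later, and their GC content can differ from that of the whole. They are mm9, plus strand, with every CpG dinucleotide in capitals. The first 3 are the 150 bp upstream of the start of a member, for 1 of the 3 members that share the lowest GC content around the start (Olfr58, chr9:19584577-19584726), that of highest GC content (Olfr982, chr9:39881732-39881881) and that nearest to a hotspot (Olfr978, chr9:39801247-39801396). None of these stretches lay in a hotspot.
Olfr58: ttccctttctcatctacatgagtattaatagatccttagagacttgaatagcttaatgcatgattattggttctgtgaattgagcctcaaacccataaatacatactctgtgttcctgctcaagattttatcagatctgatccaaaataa
Olfr982: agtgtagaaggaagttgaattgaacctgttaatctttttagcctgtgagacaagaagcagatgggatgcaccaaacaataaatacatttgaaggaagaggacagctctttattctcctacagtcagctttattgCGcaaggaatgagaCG
Olfr978: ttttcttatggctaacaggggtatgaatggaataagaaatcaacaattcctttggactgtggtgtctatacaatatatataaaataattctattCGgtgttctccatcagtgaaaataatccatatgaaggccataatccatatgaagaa
These stretches held 34, 40 and 32% GC and 0, 2 and 1 CpG. The windows of 500 bp on each side of the same starts held 31.2, 47.5 and 42.6% GC. The next 4 lie inside the clusters and inside hotspots. The first is the 200 bp upstream of a start of Zfp317 (chr9:19426335-19426534), a zinc finger gene within cluster 1 whose start all 3 nucleases marked. The others are the central 200 bp of the hotspot region of highest GC content, found with Benzonase and Cyanase (chr9:18584125-18584324), of the region of lowest GC content among those found with all 3 nucleases (chr9:19495960-19496159), and of the DNase I region nearest to a member, Olfr978 (chr9:39800843-39801042).
Zfp317: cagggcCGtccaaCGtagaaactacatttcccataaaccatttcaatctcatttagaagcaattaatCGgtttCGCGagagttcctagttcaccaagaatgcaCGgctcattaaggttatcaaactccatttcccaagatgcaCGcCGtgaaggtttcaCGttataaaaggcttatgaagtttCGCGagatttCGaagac
Benzonase and Cyanase: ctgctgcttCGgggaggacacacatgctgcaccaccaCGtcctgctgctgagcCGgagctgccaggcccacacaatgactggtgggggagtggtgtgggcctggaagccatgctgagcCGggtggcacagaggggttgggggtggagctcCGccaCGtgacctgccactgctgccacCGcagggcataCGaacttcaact
All 3 nucleases: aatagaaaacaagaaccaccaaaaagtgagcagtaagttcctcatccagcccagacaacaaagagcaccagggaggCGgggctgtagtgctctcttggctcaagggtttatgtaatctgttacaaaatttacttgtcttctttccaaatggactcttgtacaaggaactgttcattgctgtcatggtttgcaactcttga
DNase I: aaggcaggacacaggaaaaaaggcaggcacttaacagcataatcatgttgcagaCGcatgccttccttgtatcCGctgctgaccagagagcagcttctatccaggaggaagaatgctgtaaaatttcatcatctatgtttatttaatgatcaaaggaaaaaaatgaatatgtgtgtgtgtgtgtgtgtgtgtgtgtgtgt
They held 42.5, 65.5, 43 and 41.5% GC and 12, 8, 1 and 2 CpG. The whole regions around them held 42.9, 60.5, 34.6 and 38.3% GC.

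None of the 129 members had a TSS inside a hotspot of any nuclease. The count was 0 of 129 for DNase I, 0 of 129 for Benzonase and 0 of 129 for Cyanase, each with a 95% Wilson interval reaching 2.89%. Over all protein-coding genes, a TSS lay in a hotspot for 47.4% with DNase I, 57.4% with Benzonase and 55.8% with Cyanase. Over the 1136 other protein-coding genes of chromosome 9 the shares were 51.6% (48.7 to 54.5), 63.3% (60.4 to 66.0) and 60.3% (57.4 to 63.1). The members thus lay below the background in each list, and the intervals of members and other genes did not overlap. The intervals treat genes as independent, although the members lie side by side in clusters. The bound of 2.89%, here and below, may thus be too low. Starts of a second annotation were also scored. Promoter sequences of RefSeq (GRCm38.p6) for 106 members matched mm9 chromosome 9 exactly and once, 88 of these members had the same start as in GENCODE, and 0 of the 106 RefSeq starts lay in a hotspot of any list. For the 88 the shared start repeats the GENCODE result, so only the members with another start add to it. For 68 of the 129 members every GENCODE TSS is at the start codon, so a start further upstream may not have been scored. The other 23 members had no RefSeq entry under their symbol.

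The bodies of the genes were equally free of hotspots. No list had a hotspot overlapping any of the 129 members from gene start to gene end, again 0 of 129 with an interval reaching 2.89%, whereas 61.5% of all protein-coding genes were overlapped by a DNase I hotspot, 66.9% by a Benzonase hotspot and 65.3% by a Cyanase hotspot. Since most members are short, the 12552 other genes no longer than the longest member were counted separately. Among them a hotspot lay over the gene for 51.2% with DNase I, 57.8% with Benzonase and 56.0% with Cyanase, although their median length was not set equal to that of the members. The 6 Olfr pseudogenes of chromosome 9 had none either.

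**Figure D1:**
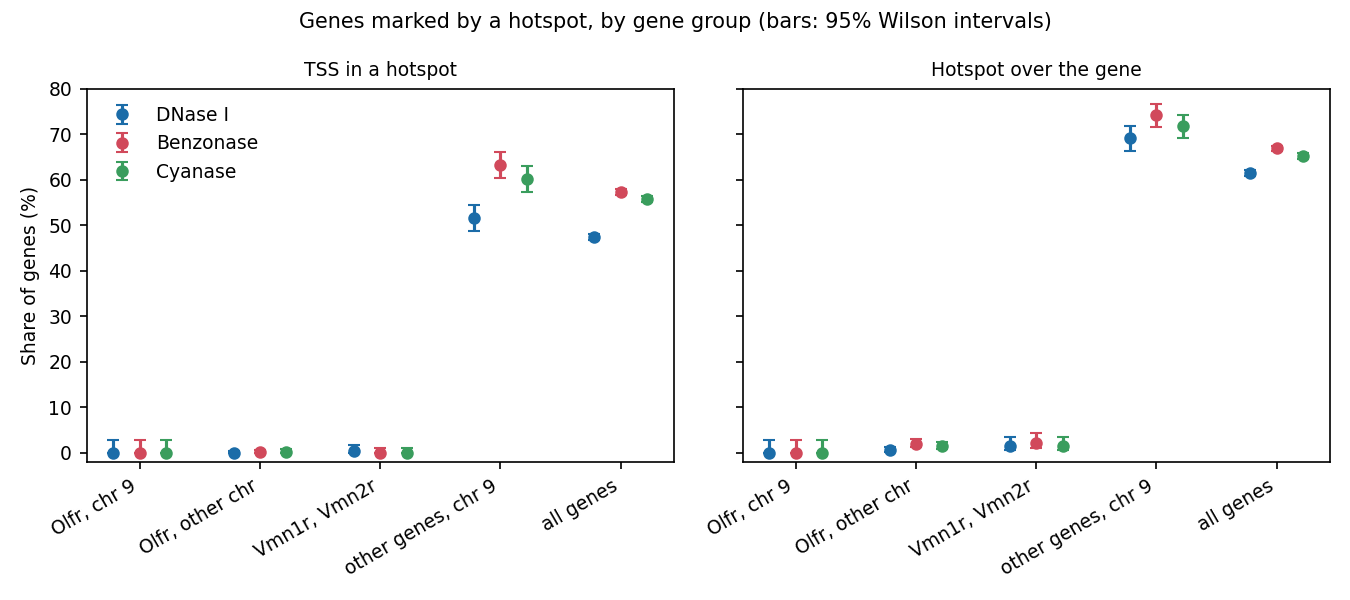
Share of genes (%) with a TSS in a hotspot (left) and with a hotspot over the gene (right) for 5 gene groups, per nuclease. Points are shares and bars are 95% Wilson intervals. The 129 Olfr genes of chromosome 9 sit at 0% in both panels for each nuclease, beside 47.4 to 66.9% for all genes.

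A hotspot within 1 kb of a TSS was found for 1 of 129 members (0.775%, 0.137 to 4.26) with DNase I and for 0 of 129 with Benzonase and Cyanase. Over all protein-coding genes the same window held a hotspot for 51.8%, 61.1% and 59.4%. The single member was Olfr978 (chr9:39801397-39802332, plus strand), whose start lay 211 bp downstream of a DNase I hotspot of 488 bp (chr9:39800699-39801186). A second DNase I hotspot of 914 bp, 1123 bp upstream of the gene (chr9:39799361-39800274), flanked it. For Olfr978 the nearest Benzonase hotspot was 47954 bp away and the nearest Cyanase hotspot 47705 bp away, so this place was called in the DNase I list alone. Both DNase I hotspots had low GC content, 38.3% and 38.1%.

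The 3 members next in distance each lay near a hotspot of a single frozen tissue list. Olfr921 lay 1270 bp from a Benzonase hotspot of 287 bp, with the nearest DNase I hotspot at 44491 bp and Cyanase at 54508 bp. Olfr846 was 1588 bp from a Benzonase hotspot of 251 bp, with DNase I at 260283 bp and Cyanase at 260387 bp. For Olfr26 the distance was 2258 bp to a Cyanase hotspot of 268 bp, with Benzonase at 83242 bp and DNase I at 126463 bp. Each of these 3 genes was thus near a narrow hotspot of 1 list and at least 44491 bp from the others. Olfr974 was nearer to both frozen tissue lists, 3393 bp for Benzonase and 3515 bp for Cyanase, with DNase I at 33490 bp. Olfr148 lay 3978 bp from a DNase I hotspot, and 332064 bp and 299394 bp from the nearest Benzonase and Cyanase hotspots.

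Upstream regions were also scored from 10 kb before the gene start to 1 kb after it. DNase I hotspots lay there for 6 members (Olfr151, Olfr874, Olfr960, Olfr149, Olfr965 and Olfr978), Benzonase hotspots for 2 (Olfr869 and Olfr921) and Cyanase hotspots for 0, beside 58.5, 65.7 and 63.8% of all protein-coding genes. No member had hotspots of all 3 nucleases in this window. These members were picked out after the values were seen. Neighbours shared hotspots. The starts of Olfr151 and Olfr874 lay 9180 bp and 5304 bp from the same DNase I hotspot, and those of Olfr149 and Olfr965 lay 6340 bp and 9807 bp from another, so the 6 members do not stand for 6 separate hotspots.

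Over the whole set the members lay far from hotspots. The median distance from a TSS to the nearest hotspot was 72473 bp for DNase I (211 to 560997), 71719 bp for Benzonase (1270 to 332064) and 83815 bp for Cyanase (2258 to 308955). The medians over all protein-coding genes were 449, 0 and 0 bp. Taking the nearest hotspot of any list, the median over members was 29703 bp, with quartiles of 13937 and 67427 bp, and 19 members had a hotspot within 10 kb, 87 (67.4%) within 50 kb and 116 (89.9%) within 100 kb. The farthest was Olfr955, 131470 bp from a DNase I hotspot, 197875 bp from Benzonase and 156574 bp from Cyanase. Within 10 kb a hotspot of any list lay for 14.7% of members and for 76.9% of all protein-coding genes. For all genes the share was 93.1% within 50 kb and 97.1% within 100 kb. The members thus came nearer to the background at 100 kb when any list was taken. By nuclease they stayed well below it, with a hotspot within 100 kb for 61.2% of members with DNase I, 68.2% with Benzonase and 54.3% with Cyanase. The shares of all genes were 91.5, 94.3 and 93.3%.

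**Figure D2:**
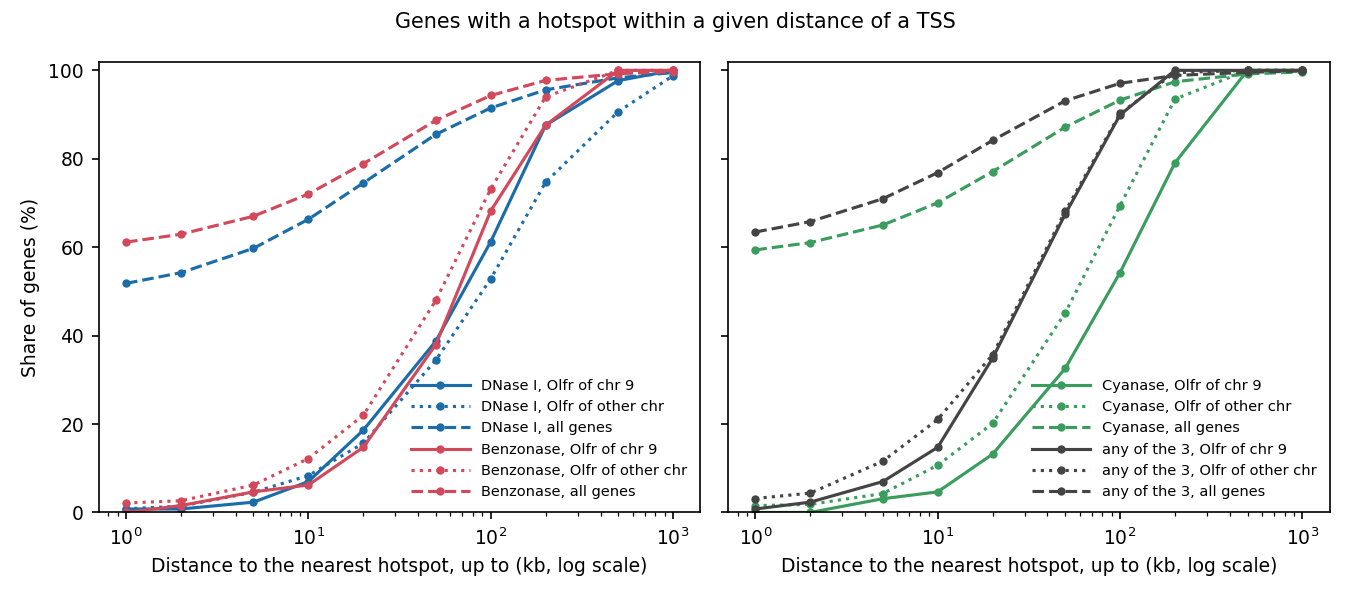
Share of genes (%) with a hotspot within a given distance of a TSS (kb, log scale) for DNase I and Benzonase (left) and Cyanase and any list (right). Solid lines are Olfr genes of chromosome 9, dotted lines Olfr genes of other chromosomes and dashed lines all protein-coding genes. The solid lines start near 0% and, for any list, reach 67.4% at 50 kb.

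The clusters as a whole held few hotspots, and the numbers were similar for the 3 nucleases. Over the 4.06 Mb of both clusters there were 19 DNase I hotspots, or 4.68 per Mb (exact Poisson interval 2.82 to 7.31), 18 Benzonase hotspots, or 4.44 per Mb (2.63 to 7.01), and 17 Cyanase hotspots, or 4.19 per Mb (2.44 to 6.71). The rest of chromosome 9 held 32.8, 27.3 and 26.4 per Mb, and all chromosomes together 28.3, 23.8 and 22.5 per Mb. Hotspots covered 0.256, 0.211 and 0.179% of the clusters and 2.03, 1.88 and 1.72% of all called bases. The hotspots inside the clusters were also narrow. Their median widths were 488 bp for DNase I, 441 bp for Benzonase and 405 bp for Cyanase, beside 649, 652 and 641 bp over the whole lists. Of 19 DNase I hotspots 15 were no wider than the median of their list, as were 15 of 18 for Benzonase and 14 of 17 for Cyanase. Leaving out the narrowest 25% of each list left 8, 6 and 6 hotspots in the clusters, 1.97, 1.48 and 1.48 per Mb, beside 21.2, 17.9 and 16.9 per Mb over all chromosomes.

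Within the clusters the nucleases were spread differently. Cluster 1 held 4 DNase I, 10 Benzonase and 9 Cyanase hotspots, or 2.53 (0.689 to 6.48), 6.32 (3.03 to 11.6) and 5.69 (2.60 to 10.8) per Mb. Cluster 2 held 15, 8 and 8, or 6.06 (3.39 to 9.99), 3.23 (1.39 to 6.36) and 3.23 (1.39 to 6.36) per Mb. DNase I was thus the lowest of the 3 in cluster 1 and the highest in cluster 2, while the intervals of the nucleases overlapped in each cluster. The median distance of members to the nearest DNase I hotspot was 172567 bp in cluster 1 and 54902 bp in cluster 2, for Benzonase it was 47757 and 77030 bp, and for Cyanase it was nearly equal, 83815 and 85436 bp. Long stretches held no hotspot. DNase I had none over the first 867 kb of cluster 1, which hold 19 members. Benzonase had none over 673 kb of cluster 2 with 24 members, and Cyanase none over 654 kb of cluster 1 with 14 members and 632 kb of cluster 2 with 24 members. In these stretches other lists did have hotspots, and the longest stretches free of all 3 were 262 kb in cluster 1 with 8 members and 278 kb in cluster 2 with 9 members. Of the 40 windows of 100 kb in the clusters, 26 were empty of DNase I hotspots, 26 of Benzonase, 27 of Cyanase and 16 (40%, 26.3 to 55.4) of any hotspot, where over all chromosomes 34.5, 33.5, 35.9 and 18.9% of such windows were empty.

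**Figure D3:**
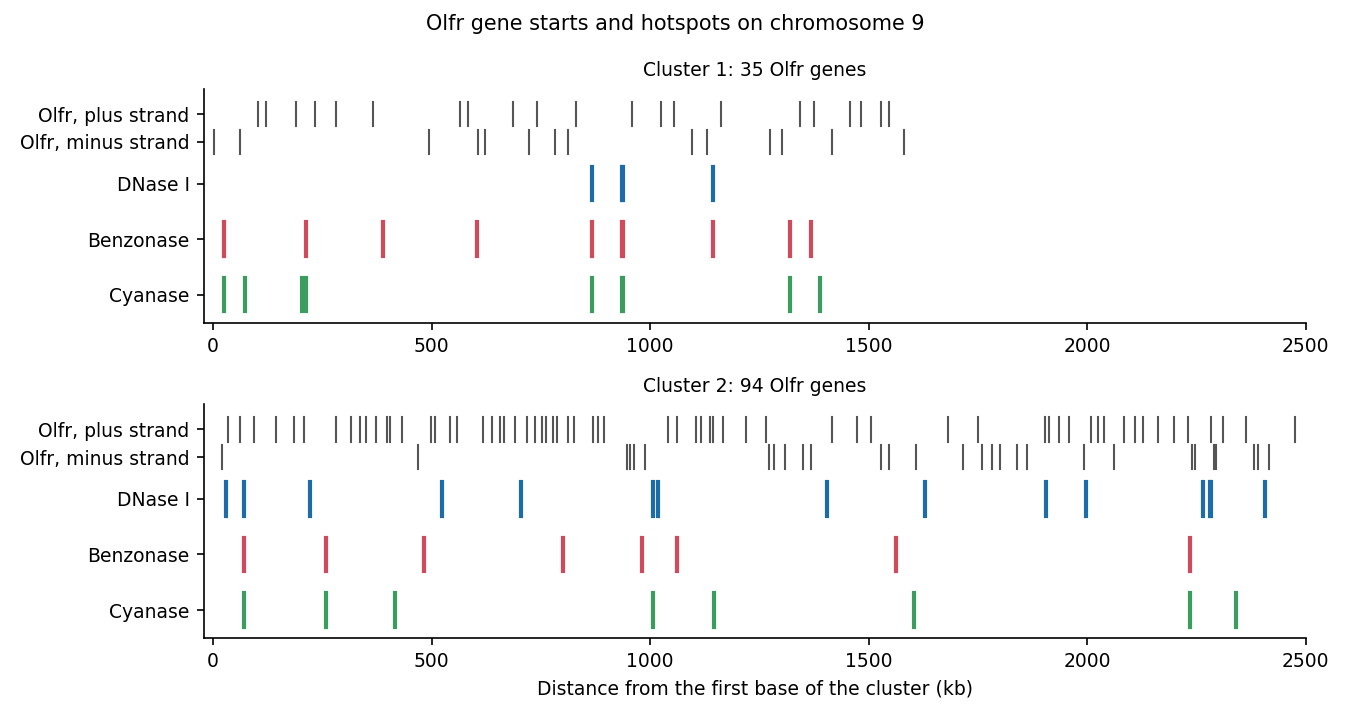
Maps of cluster 1 (top) and cluster 2 (bottom), with distance from the first base of the cluster in kb. Grey ticks are starts of Olfr genes by strand and coloured ticks are regions called with each nuclease. Cluster 1 has no DNase I tick over its first 867 kb, and cluster 2 has 15 DNase I hotspots beside 8 for each other nuclease.

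Density changed at the edges of the clusters. The 1 Mb after cluster 1 held 66 DNase I, 58 Benzonase and 58 Cyanase hotspots, and the 1 Mb before it 5, 6 and 7. On both sides of cluster 2 the values were higher than inside, with 35, 33 and 35 in the 1 Mb before it and 43.1, 28.0 and 29.04 per Mb after it. The genes next to the clusters differed by side. Zfp560, the zinc finger gene after cluster 1, and Zfp202, the zinc finger gene after cluster 2, had a TSS in hotspots of all 3 nucleases. Muc16, a large mucin gene before cluster 1, and Panx3, a pannexin channel gene before cluster 2, had a TSS in none. The low density thus ended at the distal edge of cluster 1 and continued beyond its proximal edge.

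Among the 6 other protein-coding genes within the clusters, 2 carried hotspots at a start. Zfp317 was the 1 such gene in cluster 1. From its GENCODE start the nearest hotspots were 18642, 18553 and 18633 bp away, but both of its RefSeq starts, placed on mm9 at 19426535 and 19426748, lay inside a region of 1033 bp called with all 3 nucleases (chr9:19426083-19427115), which held 34 CpG. The nearest member start to this region was that of Olfr855, 37128 bp away. Vwa5a, a gene with a von Willebrand factor A domain in cluster 2, had its start in a region called with DNase I and Cyanase (chr9:38525565-38526165). The starts of AW551984, 1700001J11Rik, Tmem225 and Gm4893 lay in no hotspot. Without these 6 genes, extended to their RefSeq starts, and 5 kb on each side, the clusters held 4.08 DNase I, 4.33 Benzonase and 3.57 Cyanase hotspots per Mb.

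Hotspots joined where they overlapped by at least 1 bp gave 39 regions in the clusters, 13 in cluster 1 and 26 in cluster 2. DNase I unique regions numbered 13 (33.3%, 20.6 to 49.0), common regions with DNase I and at least 1 other nuclease 6 (15.4%, 7.25 to 29.7), and Benzonase-Cyanase unique regions 20 (51.3%, 36.2 to 66.1). Over all chromosomes the shares were 28.3, 45.4 and 26.3%. Common regions were thus a smaller part of the regions in the clusters than over the genome, and the Wilson interval lay below the genome value. Regions in the clusters were narrower, with a median of 456 bp beside 641 bp over the genome. Regions of like width were not compared, so this may not be particular to the clusters. Of the 20 Benzonase-Cyanase unique regions, 8 were called with Benzonase alone and 7 with Cyanase alone. All 13 DNase I unique regions were in cluster 2, where they made up 50% of 26 regions (32.1 to 67.9), and cluster 1 had 0 of 13 (up to 22.8). Regions of all 3 nucleases numbered 4. Besides the region at Zfp317, a pair lay close together at chr9:19494536-19495279 and chr9:19495743-19496375, 21994 and 20898 bp from the start of Olfr857, and the fourth, at chr9:37590187-37591013, was 9965 bp from the start of Olfr875. The last 3 overlapped no annotated protein-coding gene.

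The classes differed in base content, which the classes did not use. DNase I unique regions had a median GC content of 38.3% (31.5 to 46.8), common regions 45.8% (34.6 to 54.2) and Benzonase-Cyanase unique regions 53.1% (46.2 to 60.5). The DNase I unique and Benzonase-Cyanase unique regions overlapped in GC content between 46.2 and 46.8% alone. Over all chromosomes the medians of the same classes were 42.3, 48.8 and 54.3%, in the same order. The clusters themselves had 38.0% GC (cluster 1) and 37.7% GC (cluster 2), beside 41.8% over all chromosomes, so that DNase I unique regions were close to the surrounding sequence and every Benzonase-Cyanase unique region was above it.

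**Figure D4:**
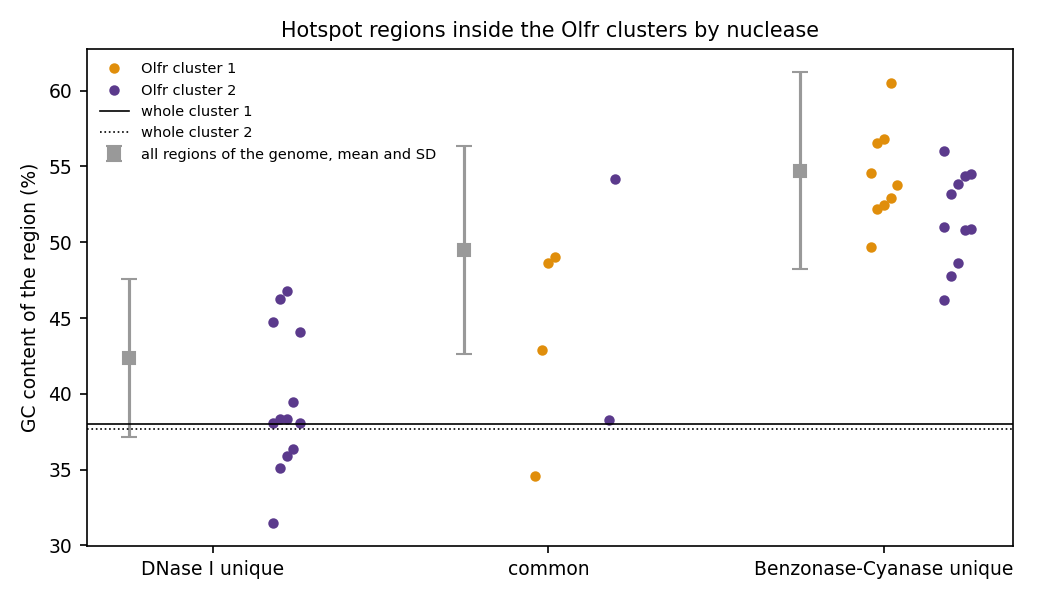
GC content (%) of the 39 hotspot regions inside the Olfr clusters by class. Dots are regions, coloured by cluster, grey squares with bars are the mean and SD of the class over the genome, and horizontal lines are the GC content of each whole cluster. DNase I unique regions sit from 31.5 to 46.8% and Benzonase-Cyanase unique regions from 46.2 to 60.5%.

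The starts of the members were AT-rich. Within 500 bp on each side of the gene start the median GC content was 37.7%, from 31.2% at Olfr58, Olfr860 and Olfr872 to 47.5% at Olfr982, beside a median of 54.7% over all protein-coding genes. Cluster 1 (35.1%) was lower than cluster 2 (39.1%). Under 40% GC were 96 of 129 members and 8.52% of all genes. The windows held a median of 4 CpG, from 0 to 15, beside 41 over all genes. Members were set beside other genes of like composition, leaving out the Olfr and Vmn (vomeronasal receptor) families. Over the range of the members, the share of these genes marked rose in each list from the bin of 35 to 40% GC upward. In the bin of 30 to 35% GC it was 9.88% with DNase I, 5.81% with Benzonase and 6.40% with Cyanase. For DNase I and Cyanase these shares were not lower than from 35 to 40% GC. From 35 to 40% GC, where 70 members lay, the gene start was in a hotspot for 9.15% (7.33 to 11.4) of 787 other genes with DNase I, 6.10% (4.63 to 7.99) with Benzonase and 5.34% (3.97 to 7.14) with Cyanase. For 0 of the 70 members the interval reached 5.20%, which lay below the interval of the other genes for DNase I and overlapped it for Benzonase and Cyanase. From 40 to 45% GC, with 28 members and an upper bound of 12.1%, the shares were 11.9% (10.5 to 13.4), 9.41% (8.20 to 10.8) and 9.16% (7.96 to 10.5), and the intervals overlapped in each list. These bins without the receptor families were chosen after the data were seen.

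Over the whole GC range of the members, 4330 other protein-coding genes outside the Olfr and Vmn families had a start in a hotspot for 13.3% (12.4 to 14.4) with DNase I, 10.9% (10.01 to 11.9) with Benzonase and 10.4% (9.52 to 11.3) with Cyanase, and 9.08% (8.26 to 9.97) were marked by all 3. These intervals lay above that of the members, 0 of 129 with an upper bound of 2.89%. The 4330 genes share the range of GC content of the members but not its distribution. Bins of 30 to 35 and 35 to 40% GC held 26 and 70 members beside 172 and 787 other genes. The bin of 45 to 50%, partly within the range, held 5 members beside 2988 other genes, of which 23.0, 23.1 and 21.9% were marked. GC-richer genes thus weigh more in the shares of the 4330 than among the members. Within this range were Alb (37.6% GC), Fgb (38.6%) and Cps1 (39.9%), which encode albumin, fibrinogen beta chain and carbamoyl phosphate synthetase of hepatocytes and had a TSS in hotspots of all 3 nucleases.

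**Figure D5:**
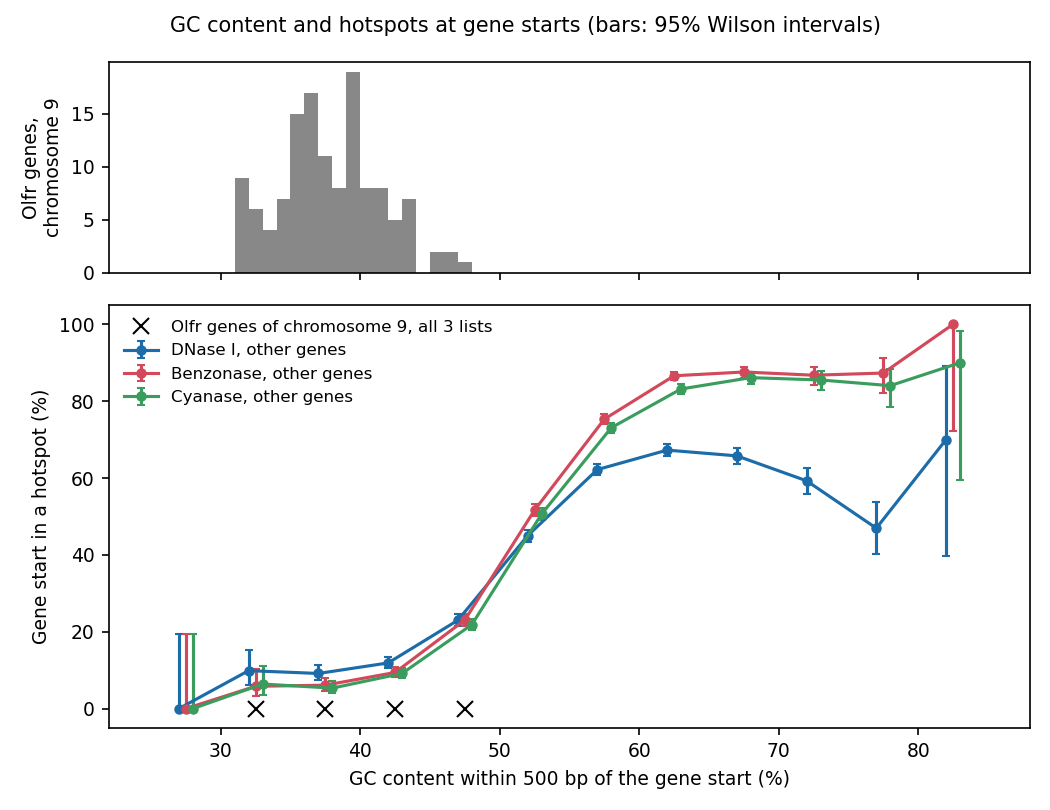
Top, number of Olfr genes of chromosome 9 by GC content (%) within 500 bp of the gene start. Bottom, share of other protein-coding genes (%), without the Olfr and Vmn families, with the gene start in a hotspot, in bins of 5 percentage points, with 95% Wilson intervals, and crosses at 0% for the bins that hold Olfr genes of chromosome 9. Members lie between 31.2 and 47.5% GC, and from 30 to 50% GC the shares of other genes run from 5.34 to 23.1%.

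The sequence of the members and clusters was also repeated within the genome, which bears on tags because those that align to several places are usually not counted. Of the 32-base words of the clusters, 75.01% occurred once in mm9 (70.1% in cluster 1, 78.2% in cluster 2), beside 83.6% over the genome. In the windows around the starts of members the median was 92.3%, from 62.2% at Olfr955 to 100%, beside a median of 100% over all genes. All words were unique for 26 members, and 0 of these 26 had a TSS in a hotspot (up to 12.9%). Since no member at all was marked, this 0 was fixed in advance. It does not show whether repeated words lowered the counts. Per Mb of words that occur once, the density over the clusters was 6.24 for DNase I, 5.91 for Benzonase and 5.58 for Cyanase. The density over the genome was not computed on this scale. The genome densities given above are per called base and have another denominator. There were 1865 other genes with both a GC content in the range of the members and a unique share at or under their median. Of these, 7.88% (6.74 to 9.19), 5.42% (4.48 to 6.54) and 5.25% (4.33 to 6.36) had the start in a hotspot. The intervals again lay above 2.89%, but this bound covers all 129 members, also those with a unique share above their median. Members at or under the median were not scored apart. A bound on fewer members would be higher, so no difference is read from these intervals. The 1865 genes too were not matched to the members in the distribution of GC content. The part of word copies in the counts was not tested further, since tags were not used here.

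The coding sequences showed how alike the members are. Translated from mm9, the 129 proteins had a median length of 312 residues, from 305 to 331. The median identity of a member to its closest other member was 86.3%, from 44.2% for Olfr986 to 96.8% for Olfr952 and Olfr955, and 43 members had a partner above 90%. Identity between pairs had a median of 56.6% within clusters and 41.2% between clusters. Olfr955, of the most alike pair, also had the lowest unique share at its start and the greatest distance to a hotspot. This is 1 member picked for its extremes. Olfr978, the nearest to a hotspot, had a unique share of 70.8% at its start. The 26 members with only unique words had a median distance to a hotspot of any list of 28196.5 bp, beside 29703 bp over all members. A relation of unique share to distance was not tested.

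Short motifs were searched on both strands in the 500 bp upstream of gene starts. For 68 of the 129 members every annotated TSS is at the start codon, so the bases searched may not be their promoter. The homeodomain core TAATNA was found for 114 of 129 members (88.4%, 81.7 to 92.8) and for 43.5% of all protein-coding genes, whose starts are richer in GC. The EBF palindrome TCCCNNGGGA was found for 1 member (0.775%, 0.137 to 4.26) and 1.51% of all genes. The core CCNNNAGGNGGC of the insulator protein CTCF was found for 0 members (up to 2.89%) and 4.85% of all genes. Among the 39 regions of the clusters, 0 held the CTCF core (up to 8.97%) and 1 the EBF palindrome (2.56%, 0.454 to 13.2). Of all 94491 regions, 6.36% and 2.32% did. Both intervals include the share over all regions, so these counts show no difference. The regions of the clusters were also narrower, with a median of 456 bp beside 641 bp. A match is a description of the letters and does not show binding.

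Genes through which olfactory receptors are made and act gave another picture. The list held 12 signalling and trafficking genes of olfactory sensory neurons, such as Gnal (the G protein alpha subunit), Adcy3 (adenylyl cyclase), Cnga2 (a cyclic nucleotide gated channel subunit), Omp (olfactory marker protein) and Rtp1 (a receptor transporter). A TSS lay in a hotspot for 1 of these 12 with DNase I, 5 with Benzonase and 3 with Cyanase, where the background was 47.4, 57.4 and 55.8% of all genes. Ric8b, an exchange factor for the G protein, was marked at a TSS by all 3 lists, Adcy3 and Reep1 by Benzonase and Cyanase, and Gnal and Ano2 by Benzonase. The other 7 had no TSS inside a hotspot. Of these 7, Omp had a hotspot of each list over the gene, 224, 192 and 202 bp from its TSS for DNase I, Benzonase and Cyanase. Cngb1 also had a hotspot of each list over the gene, and Cnga2, Cnga4, Rtp1, Rtp2 and Stoml3 had none over the gene. Of 14 transcription and chromatin genes tied to receptor choice, 7, 13 and 12 were marked. These included Ldb1, Atf5, Kdm1a, Lbr, Cbx5, Ehmt1 and Setdb1 with all 3 lists, while Lhx2, Ebf1, Ebf4, Emx2 and Ehmt2 were marked by Benzonase and Cyanase, Ebf3 by Benzonase and Ebf2 by none. Lhx2 lay 5 bp from a DNase I hotspot, and Ebf2 lay 922, 816 and 846 bp from DNase I, Benzonase and Cyanase hotspots. The other genes of this list lay at least 3805 bp (Ehmt2) from the lists that did not mark them. Many of the transcription and chromatin genes also act outside the nose. The 8 liver markers (Alb, Apoa1, Apoa2, Apoc3, Fgb, Hnf4a, Cps1 and Serpina1b) were marked by each of the 3 lists. Of the 4 markers of olfactory sensory neurons (Omp, Gnal, Adcy3 and Cnga2) 0, 2 and 1 were marked. These 4 are among the 12 signalling and trafficking genes already counted.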

How the data were processed

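The authors used Eland or Bowtie to place Illumina tags on mm9. Tags of the same nuclease were pooled before hotspot calling (3 amounts of Benzonase, 3 of Cyanase, and, per the file headers, a pair of DNase I libraries where the labels list 1 sample), and the caller ran with an FDR of 0% and its density cutoff set to the mode. A deposited list gives 3 values for a hotspot, its chromosome, first base and last base. The lists were adjusted for input and carry no count or score, so depth per hotspot is unknown. Columns of other samples numbered 0. The rule for members uses no accessibility value, but members and gene lists were chosen with earlier results of these data known.

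Genes and TSSs came from GENCODE M1 on mm9 (NCBIM37). A gene was marked when at least 1 of its TSSs lay in a hotspot. GC content and unique words were taken within 500 bp of the gene start. Word uniqueness used 32 bases on both strands over the whole genome, with every 1000th base for the genome value. The read length is not given in the sources used here, so the word length is a choice. Start sites of RefSeq (GRCm38.p6) were placed by exact match of 250 bp before and 50 bp from the start. Proteins were aligned globally in Biopython 1.88 (BLOSUM62, gap costs of 11 and 1, free end gaps), with identity over the shorter protein. No test was run because each nuclease has 1 list. Shares carry Wilson and densities exact Poisson intervals (95%). Genes named are those nearest to and farthest from hotspots, at the cluster ends, at the extremes of GC content, the most alike pair, and neighbouring and listed genes. Counting was tested on simulated hotspots, where 200 of 200 planted starts were recovered. Python 3.11.15, numpy 2.4.6, scipy 1.17.1, numba 0.67.0 and samtools 1.23.1 were used. RNA, single-amount tags and histone data were not used here.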

Additional observations from a re-analysis of the deposited data

How the results depend on the processing

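Each list pools its libraries, so no library could be left out, and the lists allow no test. No paired analysis was possible because the result comes from no test and each nuclease has 1 list. Of 55 alternatives, 42 gave values close to the first ones, 13 moved away from them and none changed a direction. Some of the 42 could not have differed. Joining at 250 kb gave the same 2 clusters, since the widest gap between neighbouring members was 127326 bp. The counts of 0 members with a TSS or gene body in a hotspot stayed at 0 with the start of the gene record alone and with all 135 Olfr genes of any type. They were also 0 with hotspot midpoints, coding sequence alone, and lists without their narrowest 25%. These last 3 settings can only remove overlaps, so their 0 was fixed in advance and adds nothing. The start of the gene record lies within the gene body, so its 0 followed from that of the gene bodies. With a window of 1 kb the DNase I count was 1. With alternatives chosen after the data were seen, the counts within 5 kb of a TSS were 3 for DNase I, 6 for Benzonase and 4 for Cyanase (59.7, 67.0 and 65.0% of all genes), from 10 kb upstream to 1 kb downstream 6, 2 and 0, and with RefSeq starts 0 in each list. Without the narrowest 25% of each list, the density over the clusters was 1.97, 1.48 and 1.48 per Mb for DNase I, Benzonase and Cyanase, and the median distance to a hotspot was 242513, 245864 and 198113 bp, as fewer hotspots remained. With words of 25 bases, 68.2% of the clusters was unique, since shorter words recur more often. The DNase I unique share of regions was 30.95% at an overlap of 50% of both hotspots and 33.3% when joined within 150 bp. GC content at starts was 36.1% over 5 kb on each side. Hotspots of at least 300 bp, a limit chosen after the data were seen, gave 4.19, 2.96 and 2.71 per Mb. Clusters without other coding genes held 4.31, 4.56 and 3.803 per Mb by GENCODE records, which keep the region at the RefSeq starts of Zfp317. Each of these values stayed within the interval or spread of the first one. Only called hotspots were seen, so weaker cleavage at the members is not detectable here.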

Other observations

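Olfactory receptor genes of other chromosomes were not wholly free of hotspots. Of the 984 protein-coding Olfr genes outside chromosome 9, a TSS lay in a hotspot for 0 with DNase I, 1 with Benzonase and 2 with Cyanase. These were Olfr433 on chromosome 1 (Benzonase and Cyanase, 47.7% GC around its start) and Olfr658 on chromosome 7 (Cyanase, 52.4% GC), singled out after their values were seen. Both had a higher GC content than any of the 129 members, whose highest was 47.5%. A hotspot of any list lay over 29 of the 984 genes (2.95%, 95% Wilson interval 2.06 to 4.20), 13 of them among the 240 Olfr genes of chromosome 7 and 2 among the 286 of chromosome 2. On chromosome 9 the count was 0 of 129, with an interval up to 2.89%. This bound lies just below the share of 2.95% and within its interval, and the difference between chromosome 9 and the others was not tested.

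The vomeronasal receptor genes (Vmn1r and Vmn2r), another family of chemosensory receptors in clusters, gave similarly low counts. Of 328 genes, 1, 0 and 0 had a TSS in a DNase I, Benzonase or Cyanase hotspot, and 11 (3.35%, 1.88 to 5.90) had a hotspot of any list over the gene. Their unique share around the start had a median of 67.4%, below the 92.3% of the Olfr genes of chromosome 9, and the part of this in the counts was not tested.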
